A study of Homo sapiens with 3 samples.

Results

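CDKN1A, CDKN1B, CDKN2A and CDKN2B, which encode inhibitors of cyclin-dependent kinases (CDKs), and MDM2, GDF15, BBC3, BAX, TP53I3 and SESN1, which are known target genes of p53, were followed on the arrays of HT29 cells grown on plastic and on chitosan. The rule names the genes by symbol and sets no threshold on a measured value. All 10 were found among the 21610 genes that could be named, and 17 of the 50599 probes were matched to them through RefSeq. Since 20595 probes could not be named in this way, further probes of the 10 genes may exist. CDKN1A, CDKN2B, GDF15, BBC3 and SESN1 had 1 matched probe each, and the other 5 genes had 2 or, for MDM2, 4.

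HT29 is an established human colon adenocarcinoma line with an epithelial form. The group labelled 2D grew on tissue culture polystyrene (TCP), the group labelled chitosan on membranes cast from chitosan (CS), a sugar polymer made from chitin, and the group labelled chitosan_HA on chitosan membranes to which hyaluronan (HA) had been grafted (CSHA). The groups shared the cell line, and neither a drug nor a genetic change is named for any of them. Each substrate gave RNA for 1 single-colour array, so the differences below lack any replicate check and carry no p-value. The time in culture before the RNA was taken, and whether an array held RNA of 1 culture or of several, are not given in the sources used here.

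CDK inhibitors hold back the kinases that carry a cell from G1 into S phase. The CIP/KIP proteins p21 (CDKN1A) and p27 (CDKN1B) bind complexes of cyclins and CDKs, while the INK4 proteins p16 (CDKN2A) and p15 (CDKN2B) bind CDK4 and CDK6 and so keep the retinoblastoma protein active. p53 is a transcription factor that DNA damage and other stresses stabilise. It raises CDKN1A, which stops the cycle, MDM2, which encodes the ligase that degrades p53, and BBC3 and BAX, which open the mitochondrial route to apoptosis. In colon epithelium these inhibitors are known for the exit from the cell cycle that goes with differentiation. The study asked in other assays how many HT29 cells were quiescent on each substrate. It also measured p16 and p21 in HT29 as mRNA by RT-PCR and as protein by western blot, and reported both as increased on CS and CSHA.

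The promoter sequences of the genes are shown because p53 binding is what most of them are held to share. RefSeq (GRCh38.p14) gave 16 promoter windows for the 10 genes, each 300 bases long, with 250 bases before the transcription start and 50 after it. The p53 consensus, a pair of 10-base motifs with no gap between them, was searched with C and G required at the core of each motif and up to 3 mismatches elsewhere. The consensus reads alike on both strands. It was matched in 5 windows of 4 genes, and in 392 of all 35116 windows, or 1.12%. MDM2 came nearest with 2 mismatches, and SESN1, CDKN1B and GDF15 had 3. The matches are in capitals, and each sequence reads 5′ to 3′ on the strand of its gene.
MDM2 (chr12:68808883-68808982, plus strand): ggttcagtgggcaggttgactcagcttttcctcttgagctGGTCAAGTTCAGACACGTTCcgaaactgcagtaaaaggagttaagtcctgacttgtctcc
SESN1 (chr6:109008989-109009077, minus strand): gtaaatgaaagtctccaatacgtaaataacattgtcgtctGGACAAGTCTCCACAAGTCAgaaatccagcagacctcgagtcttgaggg
CDKN1B (chr12:12717118-12717196, plus strand): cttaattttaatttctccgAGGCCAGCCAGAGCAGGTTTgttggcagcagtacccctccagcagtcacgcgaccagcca
GDF15 (chr19:18386186-18386205, plus strand): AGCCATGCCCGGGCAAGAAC
The match began at position -94 from the transcription start in MDM2, at -49 in SESN1, at -231 in CDKN1B and at 29 in GDF15, where the start itself counts as 1. The MDM2 match lies before the internal start of the gene, the promoter through which p53 is known to drive MDM2. None of the 4 matches overlapped a GC box or a TATA box. The p53 sites known upstream of CDKN1A lie farther from its start than a window reaches, so the lack of a match there concerns these letters in this window only. A GC box (GGGCGG, either strand) stood in 13 of the 16 windows, belonging to 8 of the genes, against 45.0% of all windows. A TATA box (TATAAA, on the strand of the gene) stood in the GDF15 window alone of the 16, against 7.33% of all windows. These are matches of letters in the reference sequence, and binding of p53 was not measured.

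Levels are given as shifted log2 signal, that is, the log2 of the processed spot signal minus the log2 of its array's 75th percentile, so that 0 is the level of the probe at that percentile. A difference of 1 on this scale is 2-fold. The error beside a value comes from the spread among spots of the same probe on an array. Where a probe had only 1 spot, the error was taken from the 50 probes nearest in brightness among 860 that were printed 10 times. This error leaves out the spread between cultures, which 1 array per substrate does not measure, so a difference larger than its spot error is a difference between these arrays. Probes bind their targets with different strength, so levels are compared between substrates for a probe and never between probes.

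All 3 arrays lay on 1 slide. Between 48.6% and 51.1% of the probes were well above background, no spot was saturated, and 16 of the 17 probes of the 10 genes were well above background on every array. Defining colon epithelial markers were well above background for 11 of 12 genes on TCP and for all 12 on CS and CSHA, with a summed signal between 1183 and 1389 times the 75th percentile. None of 6 fibroblast markers (COL1A1, COL1A2, COL3A1, DCN, LUM and PDGFRA) was. The 3 endothelial markers were well above background on each array with signals of 33.0 to 56.7, near the lowest signal so called (24.1 on TCP). Of 4 leukocyte markers, 3 passed on TCP and CSHA and 2 on CS, and MS4A1 passed on none. The leukocyte list summed to between 0.777 and 0.916 times the 75th percentile and the endothelial list to between 0.319 and 0.385. Within these lists some genes differed from TCP by more than 2-fold. CEACAM5, an adhesion protein of colon epithelium, was higher than on TCP by 1.57 on CS and 2.16 on CSHA (log2 differences). GPA33, a surface antigen of the same epithelium, passed the background limit on the membranes alone and was higher by at least 1.62 on CS, or 2.01 on the CSHA array. The intestinal transcription factor gene CDX2 stood at 0.92 and 0.88, and KRT20, a keratin of differentiated colon cells, at 0.24 and 0.90. KRT18 was the lowest of the colon markers, at -0.27 and -0.06, the latter turning positive under spike-in scaling. The median of the 12 was 0.19 on CS and 0.52 on CSHA, beside 0.13 and 0.45 for the 10 genes described here. Of the leukocyte markers, CD68, a lysosomal protein of macrophages, was highest at 0.80 and 1.01. CD3E, a subunit of the T cell receptor complex, was lowest, with signals of 122, 20.6 and 34.4 on TCP, CS and CSHA. Its CS difference from TCP was -2.78 or lower, since CS was not well above background, and its CSHA difference was -1.75. CSHA exceeded CS in CD3E by at least 1.03. Among the endothelial markers PECAM1 was highest (0.09 and 0.25) and CDH5 lowest (-0.49 and -0.14, the latter also positive under spike-in scaling). The part of these markers in the differences below was not tested.

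Compared with TCP, most of the 10 genes gave more signal on the membranes, by less than 2-fold where both arrays were well above background. Leaving out CDKN1A, which is known only by a lower bound, GDF15 and SESN1 had the largest positive differences on CS, and GDF15 and BBC3 on CSHA. CDKN2B was more than 2-fold lower on both membranes, by 1 probe whose membrane signals lay near the lowest well above background. BAX was lower on CS and higher on CSHA. In RNA from a bulk culture, a gene active in fewer cells and a gene with less RNA per cell cannot be told apart.

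On CS, 7 of the 10 genes were higher than on TCP by any amount and 3 were lower, where 56.8% of the 14462 genes compared were higher. No member was shown to be 2-fold higher, CDKN1A being known only by a lower bound (1.36% of all genes were), and CDKN2B alone was at least 2-fold lower (1.92% of all genes). At 1.5-fold, GDF15 and SESN1 were higher (4.11% of all genes) and CDKN2B was lower (5.03% of all genes). The median difference of the 10 genes was 0.13, and that of all genes was 0.04.

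On CSHA, 9 of the 10 genes were higher than on TCP and 1 was lower, where 61.7% of 14624 genes were higher. Here too none was shown to be at least 2-fold higher (3.02% of all genes were), with CDKN1A again known only by its bound, and CDKN2B was the only one at least 2-fold lower (3.98% of all genes). GDF15, BBC3 and CDKN1A were at least 1.5-fold higher (11.5% of all genes), CDKN1A by its lower bound of 0.62 with an error of 0.58. That CDKN1A value was 0.51 under quantile normalization, 0.39 under normexp and 0.41 with the deposited values, short of 1.5-fold. CDKN2B was at least 1.5-fold lower (11.2% of all genes). The median of the 10 genes was 0.45, against 0.13 for all genes. Both sets of differences use the same TCP array, so an odd value there would enter both.

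The scaling of the CSHA array bears on these directions. Scaled to 8 spike-in control probes instead of the 75th percentile, the differences from TCP are larger by 0.08 on the CS array and by 0.38 on the CSHA array. The share of all genes that were higher then became 68.4% on CS and 82.7% on CSHA, and genes at least 2-fold from TCP on CSHA numbered 1491 higher and 206 lower in place of 442 and 582. The median of the 10 genes on CSHA became 0.83 and that of all genes 0.51.

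**Figure D1:**
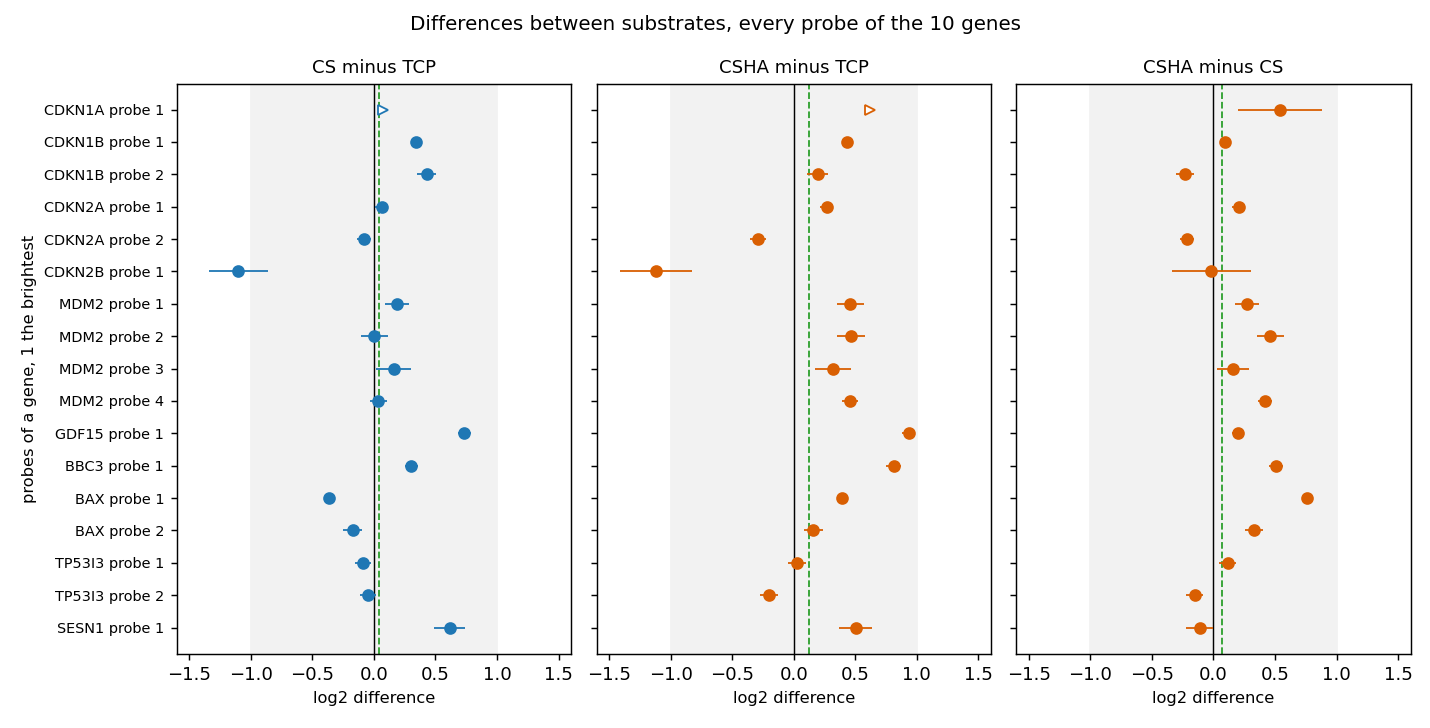
The log2 difference between substrates (horizontal axis) of each of the 17 probes (vertical axis), with bars for the spot error, open triangles for lower bounds, grey for less than 2-fold and a green dashed line at the median of all genes. CDKN2B lies beyond 2-fold in both comparisons with TCP, at -1.10 and -1.12, and GDF15 lies highest of the genes measured on every array, at 0.74 and 0.93.

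Among the CIP/KIP inhibitors, CDKN1A was read close to the detection limit of the arrays. Its processed signals were 14.0, 30.3 and 35.2 on TCP, CS and CSHA. The TCP value was not well above background, the lowest signal so called there being 24.1, and both membrane values were. On the shifted scale CDKN1A stood at -4.66, -3.80 and -3.26 in the same order. Set against the lowest TCP signal well above background, CDKN1A was 1.05-fold higher on CS and 1.53-fold higher on CSHA. These values serve as lower bounds here but are not strict, since some brighter probes failed on TCP, such as that of TP63 at 29.1. With the deposited values, which carry no bound, CDKN1A differed from TCP by 0.01 on CS and 0.41 on CSHA. CSHA exceeded CS by 0.54 with an error of 0.34. The bound on CS is thus close to no difference, and the bound on CSHA, 0.62 on the log2 scale, was 0.39 under normexp and larger by 0.38 under spike-in scaling.

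CDKN1B, which encodes p27, was higher on both membranes by both of its probes. The brighter probe, printed 10 times per array, had a mean shifted log2 signal of 1.09 ± 0.09 (SD of 10 spots) on TCP, 1.43 ± 0.04 on CS and 1.52 ± 0.06 on CSHA. Its TCP spots lay between 0.92 and 1.22, the CS spots between 1.38 and 1.51, and the CSHA spots between 1.39 and 1.58. Thus no TCP spot reached a membrane spot, while the spots of the membranes overlapped. The differences from TCP were 0.34 ± 0.03 on CS (1.26-fold) and 0.43 ± 0.03 on CSHA (1.35-fold). The dimmer probe stood at 0.63, 1.06 and 0.83 on TCP, CS and CSHA. It was higher than TCP by 0.43 ± 0.08 on CS and by 0.20 ± 0.09 on CSHA. The probes disagreed on the step from CS to CSHA, which was 0.09 ± 0.02 for the brighter and -0.23 ± 0.07 for the dimmer, the latter turning to 0.07 under spike-in scaling.

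**Figure D2:**
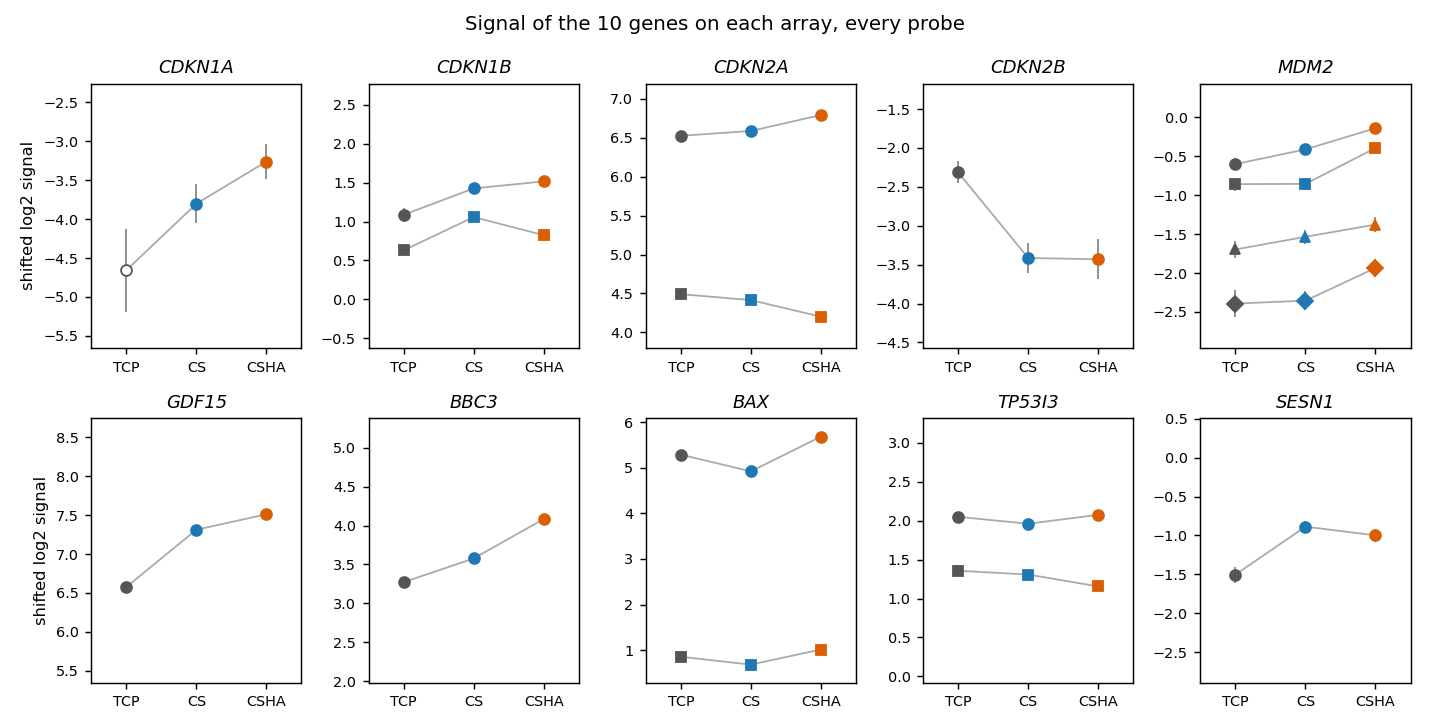
Shifted log2 signal (vertical axis, 0 at the array's 75th percentile) of each probe on the TCP, CS and CSHA arrays (horizontal axis), with bars for the SD among spots and an open circle where the probe was not well above background. The axes of the panels start at different levels, CDKN2B reads -2.32 on TCP and -3.41 on CS, and the lines of the CDKN2A probes part, reaching 6.79 and 4.20 on CSHA.

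Of the INK4 inhibitors, CDKN2B was lower on both membranes and the probes of CDKN2A disagreed. CDKN2A is the locus of p16 and, from another first exon, of p14ARF, which restrains MDM2. Its brighter probe, designed on NM_058197, read 6.53, 6.59 and 6.79 on TCP, CS and CSHA. The dimmer probe, designed on NM_000077, read 4.49, 4.41 and 4.20. The first was thus highest and the second lowest on CSHA. The brighter probe differed from TCP by 0.06 ± 0.05 on CS and 0.27 ± 0.05 on CSHA, and the dimmer by -0.08 ± 0.06 and -0.29 ± 0.06, which became 0.01 and 0.09 under spike-in scaling. No direction for CDKN2A as a whole follows from probes that part in this way, and their mean differed from TCP by -0.01 on both membranes. The probe sequences were not used here, so which transcripts of the locus each one reads is not known. CDKN2B lies beside CDKN2A in the genome and is known as a gene that TGF-beta induces. Its signals were 71.1, 39.6 and 31.3 on TCP, CS and CSHA, or -2.32, -3.41 and -3.43 on the shifted scale. The probe had 1 spot per array, and its membrane signals lay near the lowest well above background, 21.1 on CS and 22.6 on CSHA. TCP was the high array, and the membranes read within their error of each other. CDKN2B was lower by 2.14-fold on CS (-1.10 ± 0.24) and by 2.17-fold on CSHA (-1.12 ± 0.29). The difference between the membranes was -0.02 ± 0.32, an error too wide to place one above the other. With background modelled by normexp the differences from TCP were -0.54 on CS and -0.48 on CSHA, short of 2-fold.

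MDM2, the feedback regulator of p53, was read by 4 probes, and all of them were highest on CSHA. From the brightest to the dimmest, the probes read -0.60, -0.86, -1.70 and -2.39 on TCP. On CS they read -0.41, -0.85, -1.53 and -2.36, and on CSHA -0.14, -0.39, -1.38 and -1.94. The differences on CSHA were similar, at 0.46 ± 0.11, 0.46 ± 0.12, 0.32 ± 0.15 and 0.46 ± 0.07. They became 0.84, 0.85, 0.70 and 0.84 under spike-in scaling and 0.27, 0.35, 0.19 and 0.24 under normexp. Those on CS were smaller, at 0.19 ± 0.10, 0.00 ± 0.11, 0.16 ± 0.14 and 0.04 ± 0.07, and 2 of the 4 lay slightly below 0 under some alternatives. For the dimmest probe, printed 10 times, the TCP spots lay between -2.67 and -2.06, the 8 CS spots kept between -2.48 and -2.15, and the CSHA spots between -2.06 and -1.73. The CS spots fell inside the range of TCP, and the lowest CSHA spot was level with the highest TCP spot.

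The apoptosis genes BBC3 and BAX had different orders of the substrates. BBC3 encodes PUMA, a BH3-only protein that disables the BCL2 guardians. It read 3.27 on TCP, 3.58 on CS and 4.08 on the CSHA array. BBC3 was thus lowest on TCP and highest on CSHA, with a difference from TCP of 0.30 ± 0.05 on CS (1.24-fold) and 0.81 ± 0.06 on CSHA (1.76-fold). The step from CS to CSHA was 0.51 ± 0.06.

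BAX encodes a pore-forming protein of the outer mitochondrial membrane. Its brighter probe, printed 10 times, read 5.29 ± 0.04 (SD of 10 spots) on TCP, 4.92 ± 0.02 on CS and 5.68 ± 0.03 on CSHA. Its TCP spots lay between 5.18 and 5.33, the CS spots between 4.88 and 4.95, and the CSHA spots between 5.64 and 5.72, so no spot of one array overlapped those of another. BAX was lower on CS by 1.29-fold (-0.37 ± 0.02) and higher on CSHA by 1.32-fold (0.40 ± 0.02). The dimmer probe had the same order, with 0.85, 0.68 and 1.01 on TCP, CS and CSHA, and smaller differences of -0.17 ± 0.08 and 0.16 ± 0.08. Between the membranes the brighter probe differed by 0.76 ± 0.01 (1.69-fold) and the dimmer by 0.33 ± 0.08.

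**Figure D3:**
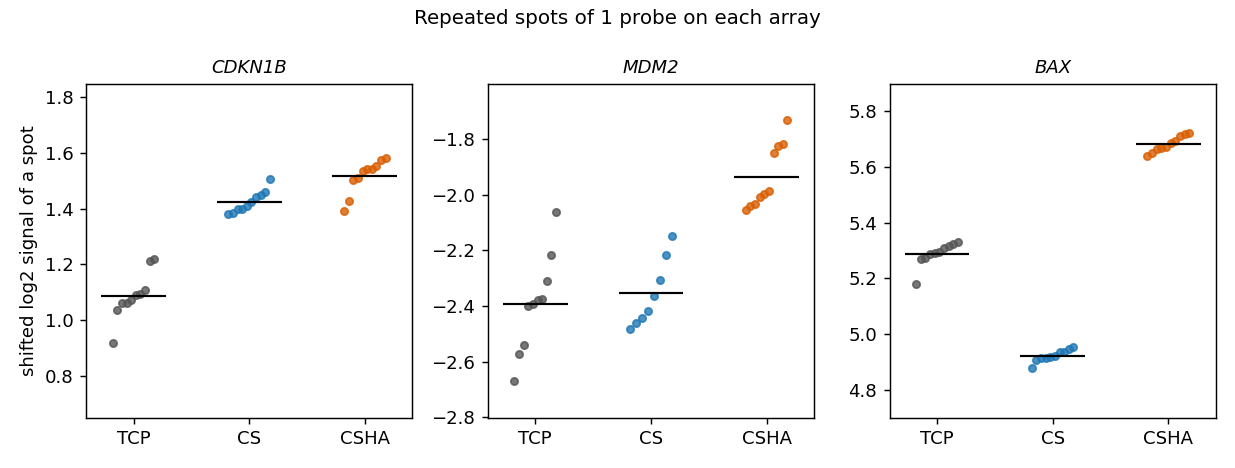
Shifted log2 signal (vertical axis) of every spot of the CDKN1B, MDM2 and BAX probes printed 10 times, on the TCP, CS and CSHA arrays (horizontal axis), with black lines at the means and spots drawn in order of size. The BAX spots form 3 separate groups with means of 5.29, 4.92 and 5.68, and the MDM2 spots of TCP and CS overlap.

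GDF15 and SESN1 were at least 1.5-fold higher on CS. GDF15 encodes a secreted cytokine of the TGF-beta superfamily, made in response to p53 and to other stresses. Its signals were 33794, 67174 and 61516 on TCP, CS and CSHA, or 6.58, 7.31 and 7.51 on the shifted scale. Both membranes were high. The differences from TCP were 0.74 ± 0.05 on CS (1.67-fold) and 0.93 ± 0.05 on CSHA (1.91-fold), the highest of the genes in either comparison, CDKN1A being left out of the order because it is known only by its bound. SESN1 encodes sestrin 1, a stress protein that restrains mTORC1. It read -1.50, -0.89 and -1.00 on TCP, CS and CSHA, and was higher by 0.62 ± 0.13 on CS (1.53-fold) and 0.50 ± 0.13 on CSHA (1.42-fold). SESN1 differed between the membranes by -0.11 ± 0.11, which turned positive under 3 of the alternatives.

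TP53I3, also called PIG3, encodes a quinone oxidoreductase linked to reactive oxygen. The brighter probe read 2.05, 1.96 and 2.08 on TCP, CS and CSHA, and the dimmer probe 1.36, 1.31 and 1.16. The arrays were close to each other. The differences from TCP were -0.09 ± 0.06 and -0.05 ± 0.07 on CS, and 0.03 ± 0.07 and -0.20 ± 0.07 on CSHA. Their signs on CSHA depended on the probe and on the scaling, since under spike-in scaling they were 0.41 and 0.18.

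The CSHA array was also read against the CS array, a comparison that leaves TCP out. Per the methods the CSHA membranes were crosslinked with a carbodiimide solution, a step not given for CS. With 1 array each, the hyaluronan, the crosslinking and the array cannot be told apart. CSHA gave more signal for 8 of the 10 genes, where 58.5% of 14597 genes were higher, and the median of the members was 0.20 against 0.07 for all genes. The count was 10 of 10 under normexp, under spike-in scaling and with the deposited values, but 5 of 10 for the mean over probes, where 56.8% of all genes were higher. No member differed by 2-fold, while 2.27% of all genes were higher by at least 2-fold and 2.15% were lower by as much. BAX alone was at least 1.5-fold higher (7.68% of all genes), and none was 1.5-fold lower (7.33% of all genes). After BAX came CDKN1A with 0.54 and BBC3 with 0.51. SESN1 and CDKN2B were the genes on the lower side, at -0.11 and -0.02, and both turned positive under spike-in scaling, when the share of all genes higher on CSHA was 83.6%.

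The rest of the pathway was read from 7 lists of genes, shown in the plot of lists. Of 37 other p53 targets, 34 could be compared on CS, of which 24 were higher and 10 lower than on TCP, with a median of 0.11, beside 56.8% of all genes higher. On CSHA, 33 could be compared, 28 being higher and 5 lower, beside 61.7% of all genes higher. Their median of 0.21 became 0.59 under spike-in scaling, when 82.7% of all genes were higher, and 0.14 under normexp. By the brightest probe, genes at least 2-fold from TCP were TP53INP1 on both membranes and XPC on CSHA. Among all genes 1.36% were as much higher on CS and 3.02% on CSHA, and 3.98% were as much lower on CSHA. The dimmer probe of AEN differed by -1.17 on CSHA, beside -0.94 for the brighter. TP53INP1, whose product links p53 to apoptosis and autophagy, read -3.28, -2.17 and -1.63 on TCP, CS and CSHA. Its differences of 1.11 ± 0.25 on CS and 1.65 ± 0.25 on CSHA were the highest of the list. The TCP signal of TP53INP1 was 36.6, near the lowest well above background there (24.1). The other probe of TP53INP1 was not measured above background on any array. XPC, a DNA damage sensor of nucleotide excision repair, differed by -0.11 on CS and -1.08 on CSHA. Under spike-in scaling 3 of the other p53 targets were higher on CSHA by at least 2-fold and 0 were lower by as much. Under normexp none of them was 2-fold from TCP on either membrane. SESN2, the sestrin that ATF4 also drives, was lowest on CS at -0.33.

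The other CDK inhibitors were CDKN1C, CDKN2C and CDKN2D, and 2 of 3 were higher on each membrane. CDKN1C, which encodes p57, was the highest at 0.17 on CS and 0.60 on CSHA. CDKN2D, which encodes p19, was the lowest at -0.22 and -0.13, though its CSHA value lay above 0 under spike-in scaling. All 3 genes were then higher on CSHA, as were 82.7% of all genes, and their median there was 0.51 in place of 0.13.

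**Figure D4:**
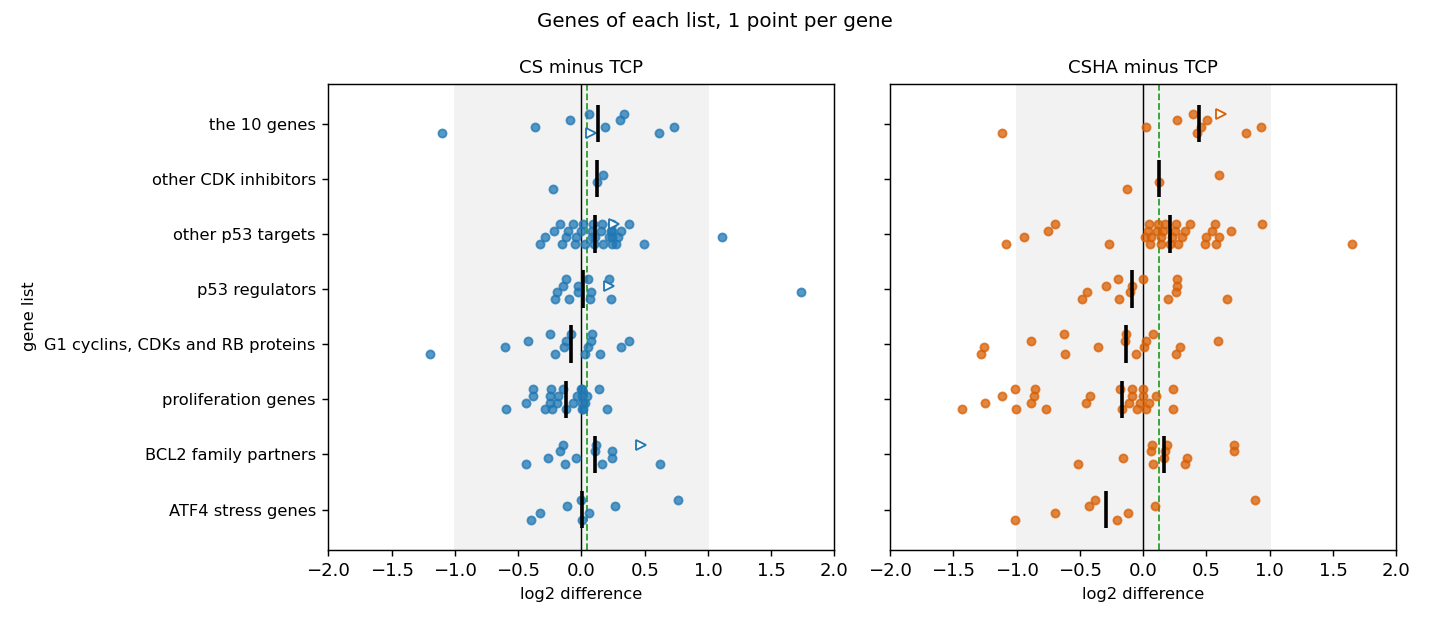
The log2 difference from TCP (horizontal axis) of each gene of the 10 members and of 7 lists (vertical axis) on CS and on CSHA, with black bars at list medians, open triangles for lower bounds, grey for less than 2-fold and a green dashed line at the median of all genes. The medians on CSHA run from -0.29 for the ATF4 stress genes to 0.45 for the 10 members.

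Of 15 genes listed as p53 regulators, 14 could be compared on CS, 7 being higher and 7 lower (median 0.01, or -0.06 with the deposited values). On CSHA 6 were higher and 7 lower (median -0.08, or 0.30 under spike-in scaling and 0.02 with the deposited values). The shares of all genes that were higher were 56.8% on CS and 61.7% on CSHA. TP73, which encodes the transcription factor p73, stood highest on CS at 1.73, where 1.36% of all genes were at least 2-fold higher. This held only for its brighter probe. That probe read -2.82, -1.09 and -3.02 on TCP, CS and CSHA, whereas the dimmer probe read -3.42, -3.64 and -2.48, so that the probes placed different arrays highest. TP53BP1, a DNA break adaptor, was lowest on CS at -0.21. The acetyltransferase gene EP300 was highest on CSHA at 0.66, and the acetyltransferase gene KAT5 lowest at -0.48.

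The cyclins and CDKs are the proteins on which the inhibitors act, and RB proteins lie next in the pathway. Of 15 G1 cyclins, CDKs and RB family genes compared, 7 were higher and 8 lower on CS (median -0.08, or 0.00 under spike-in scaling), and 6 were higher and 9 lower on CSHA (median -0.13, or 0.25 under spike-in scaling). CDK6, the kinase bound by p16 and p15, read 4.55, 3.36 and 4.81 on TCP, CS and CSHA. The CS array was thus the low one, with differences of -1.19 from TCP and 1.45 between CSHA and CS. E2F4, a repressive E2F factor, differed by -0.21 on CS and -1.28 on CSHA, and CDC25A, a phosphatase that activates CDK2, by -0.61 and -1.25. Among all genes 1.92% were at least 2-fold lower on CS and 3.98% on CSHA, and 2.27% were as much higher on CSHA than on CS. None of the list was 2-fold lower on CSHA under spike-in scaling. RBL2, the p130 pocket protein of resting cells, was the highest of the list at 0.37 and 0.59.

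Of 25 proliferation genes, 9 were higher and 16 lower on CS (median -0.12, or -0.04 under spike-in scaling), where 56.8% of all genes were higher. The CS count depended on the centring, being 2 higher and 23 lower (median -0.17) with the 75th percentile over detected probes and 3 higher and 22 lower (median -0.18) under quantile normalization. In these settings 48.7% and 52.7% of all genes were higher on CS. On CSHA 6 were higher and 19 lower (median -0.17, or 0.21 under spike-in scaling, when 14 were higher and 11 lower). Among all genes 61.7% were higher on CSHA, or 82.7% under spike-in scaling. At least 2-fold lower on CSHA (3.98% of all genes) were MCM2 (-1.43) and MCM5 (-1.01), subunits of the replicative helicase. So were FOXM1 (-1.25), a transcription factor of G2/M genes, and the mitotic genes PLK1 (-1.12) and CDC20 (-1.01). Under spike-in scaling 1 of the 25 was at least 2-fold lower on CSHA. The dimmer probe of MCM5 gave -1.11 and that of PLK1 -0.40. FOXM1 was also the lowest of the list on CS at -0.60. The highest genes were CDC25C on CS at 0.20 and CCNB1 on CSHA at 0.24.

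Among 14 BCL2 family partners of BAX and BBC3, 7 were higher and 6 lower on CS (median 0.11, or 0.03 with both arrays well above background), where 56.8% of all genes were higher. On CSHA 10 were higher and 2 lower (median 0.17, or 0.55 under spike-in scaling), beside 61.7% of all genes higher. By the brightest probe none was 2-fold from TCP, where spike-in scaling gave 2 at least 2-fold higher on CSHA. A dimmer probe of BCL2L11 differed by 1.15 on CSHA, beside 0.35 for its brightest and 0.29 for its dimmest. BMF was highest on CS at 0.62 and BIK on CSHA at 0.72, both of them BH3-only genes like BBC3. BCL2L1, which encodes the guardian BCL-XL, was lowest on CS at -0.44 and stood at 0.19 on CSHA. BOK, a relative of BAX, was lowest on CSHA at -0.52. PMAIP1 belongs to this list and to the p53 targets.

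GDF15 and SESN2 also respond to ATF4, so 8 genes of that stress response, SESN2 among them, were read as well. On CS 4 were higher and 4 lower (median 0.00), and on CSHA 2 were higher and 6 lower (median -0.29, or 0.09 under spike-in scaling). The shares of all genes that were higher were 56.8% on CS and 61.7% on CSHA. ATF3 was highest, its brightest probe differing by 0.77 on CS and by 0.89 on CSHA. Its other 3 probes ranged from -0.06 to 0.48 on CS, 1 of them as a lower bound. By the brightest probe of each gene DDIT3, which encodes CHOP, was lowest at -0.40 on CS and -1.01 on CSHA. At least 2-fold lower on CSHA were 3.98% of all genes. The dimmer probe of CHAC1 stood at -1.29 or lower on CSHA, beside -0.43 for the brighter.

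The size of most differences from TCP varied with the processing more than their direction did. On CSHA, BBC3 ranged from 0.70 to 1.19 and BAX from 0.28 to 0.78 over the 9 alternatives, with spike-in scaling at the upper end of each. On CS, BAX ranged from -0.42 to -0.27 and SESN1 from 0.33 to 0.70. CDKN2B on CSHA ranged from -1.26 to -0.48. TP53I3 on CSHA and CDKN2A on both membranes took values on either side of 0.

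**Figure D5:**
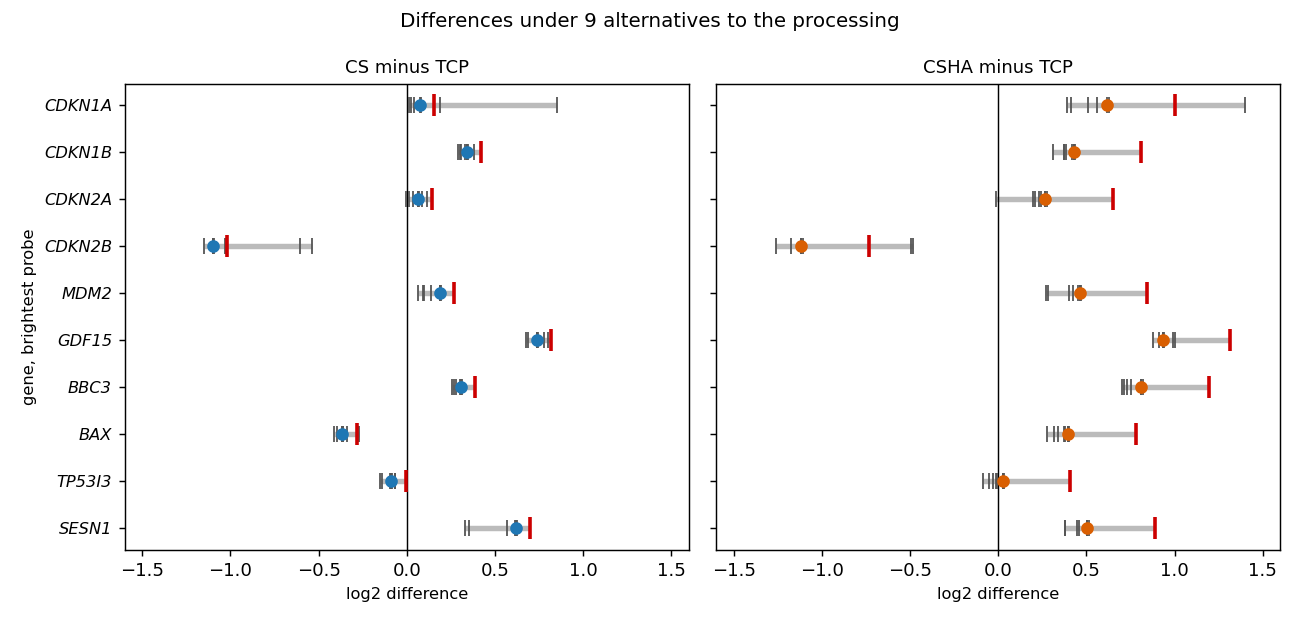
The log2 difference from TCP (horizontal axis) of each of the 10 genes (vertical axis) as reported (dots) and under 9 alternatives to the processing (ticks, with spike-in scaling in red and grey bars from the lowest to the highest). Values are of the brightest probe except for the mean over probes. CDKN1A is a lower bound except with no filter on dim probes and with the deposited values. CDKN2B lies below 0 throughout, between -1.15 and -0.54 on CS, and GDF15 lies between 0.68 and 0.82 on CS.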

How the data were processed

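The TCP, CS and CSHA cultures of HT29 were each measured on 1 single-colour array. The authors deposited the spot intensity values of the scanner software with their background flags (Feature Extraction 10.7.3.1 per the file headers, while the methods name another version) and a table of shifted log2 values. The deposited log2 differences equalled those of the median spot intensity plus a constant to within 9.85e-08, and the column medians were 0.013 (TCP), -0.129 (CS) and 0.043 (CSHA). How that table was centred is not known. The labels and the methods name different kits for RNA isolation and labelling. Use of limma is named in the submitters' processing notes.

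The processed signal, which is corrected for background, was given a floor of 1, below every value, and the log2 of the 75th percentile of all non-control probes was then subtracted on each array (354, 423 and 337 on TCP, CS and CSHA). Spots of a probe were averaged, without control spots and those flagged as outliers. Symbols came from RefSeq accessions (GRCh38.p14, names only) for 30004 of 50599 probes. The brightest probe stood for a gene in counts. Genes were compared where at least 1 of the 2 arrays was well above background. Where only 1 was, the other array was taken at no less than its lowest signal well above background, giving a lower bound on the size. Genes whose bound did not favour the array well above background were left out. Thus 14462 of 14694 genes were compared on CS, and 14597 of 14763 between the membranes. With no filter, 44.4% of 21610 genes were higher on CS, 51.3% on CSHA and 65.8% for CSHA against CS. Genes were counted at 2-fold, without a test. The error of a difference was the combined standard error of the spots. The number of arrays limits the precision. The calculation was tested on simulated data. Python 3.11.15 with numpy 2.4.6, pandas 2.3.3 and matplotlib 3.10.9 was used, and limma 3.58.1 under R 4.3.3.

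The 10 genes and the lists were chosen with earlier results of these data known. The text names all 10 genes with every matched probe. Of each other list it names, by the brightest probe, the genes at least 2-fold from TCP or between the membranes. The highest and lowest gene of each comparison with TCP are named as well. The lists are other CDK inhibitors, other p53 targets, p53 regulators (1 gene planned for this list is not reported here), G1 cyclins with CDKs and RB proteins, proliferation genes, BCL2 family partners, ATF4 stress genes, and markers of colon epithelium, fibroblasts, endothelium and leukocytes. The alternatives were normexp background correction with an offset of 50, quantile normalization, 2 other centrings, spike-in scaling, a stricter filter on dim probes and none, the mean over probes, the deposited log2 values and a threshold of 1.5-fold.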

Additional observations from a re-analysis of the deposited data

Results flagged for a closer look

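BAX stood on opposite sides of TCP on the membranes, by both of its probes. The brighter probe differed from TCP by -0.37 on CS but 0.40 on CSHA. The values of the dimmer probe were -0.17 and 0.16. With 1 array per substrate the difference between the membranes was not tested. Each of these differences was more than 2 times its spot error. The directions for BAX, by the brighter probe or as the mean over probes, were the same under all 9 alternatives that gave it a value.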

How the results depend on the processing

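Over the 10 genes and 3 comparisons, 268 values under alternatives were computed, many of them unchanged by construction under another filter, or under the mean over probes for genes with 1 probe. In 16 the sign differed, always for a value nearer to 0 than 2-fold, in CDKN1B, CDKN2A, CDKN2B, TP53I3 and SESN1. The median of the 10 genes became 0.21 on CS, 0.83 on CSHA and 0.50 for CSHA against CS under spike-in scaling, 0.25 on CS with no filter on dim probes, and 0.10 for CSHA against CS as the mean over probes. The count at least 2-fold higher, 0 as reported, became 3 on CSHA and 1 for CSHA against CS under spike-in scaling, and 1 on CSHA with no filter and with the deposited values. At 1.5-fold it was 2 on CS, 3 on CSHA with CDKN1A counted by its bound, and 1 for CSHA against CS. The count at least 2-fold lower, 1 as reported on each membrane, became 0 on CS and 0 on CSHA under normexp and with the deposited values, and 0 on CSHA under spike-in scaling. At the 2-fold threshold, all genes higher on CS numbered from 57 (normexp) to 634 (no filter) against 197, and those lower from 98 (both arrays well above background) to 1152 (no filter) against 278. On CSHA they numbered from 155 (normexp) to 1491 (spike-in scaling) higher against 442, and from 206 (spike-in scaling) to 1191 (no filter) lower against 582. For CSHA against CS the ranges were 105 (normexp) to 1111 (no filter) higher against 332, and 140 (spike-in scaling) to 676 (no filter) lower against 314. The cause of these shifts was not tested. No paired analysis was possible because each group has 1 array. CDKN1A on TCP, with a signal of 14.0 against 24.1 for the lowest called well above background, was the value that signal over background limited most.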
